A study of Mus musculus with 11 samples.

Results

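Solute carriers are membrane proteins that move amino acids, sugars, nucleosides, vitamins, metals and ions across the cell surface and across the membranes of lysosomes, mitochondria, the Golgi apparatus and the endoplasmic reticulum. Most move a substrate along its own gradient, in exchange for a second solute, or together with sodium or protons. In macrophages such as microglia they set what the cell takes up, what leaves the lysosome after engulfed material is digested, and what the mitochondria receive. The members described here are the 146 genes with a symbol beginning with Slc whose FPKM (fragments scaled to transcript length and to sequencing depth) averaged at least 2 in at least 1 of 4 treatment groups, of 377 such genes in a table of 34745. The Slco genes were not considered, and 13 further Slc genes were left out by name: the arginine, cystine, succinate and iron carriers Slc7a1, Slc7a2, Slc7a11, Slc13a3, Slc11a1, Slc11a2 and Slc40a1, the hexose carriers Slc2a1, Slc2a3, Slc2a5 and Slc2a6, and the lactate carriers Slc16a1 and Slc16a3. Of the remaining 364 genes, 218 stayed under the level, and 45 of these had no count in any library.

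RNA was sequenced from microglia of adult C57BL/6 mouse cerebrum (6 to 8 weeks of age), kept in culture for 10 to 14 days with 5 ng/ml TGF-β1 and 10 ng/ml M-CSF in every group. Cells treated with both agents (n = 3, called combined here) received Pam3CSK4, a lipopeptide agonist of Toll-like receptor 2, for 24 h (100 ng/ml) and then interferon-gamma, here IFN-gamma, for another 24 h (20 ng/ml). The Pam3CSK4 group (n = 2) and the IFN-gamma group (n = 3) received 1 agent each, and Control cells (n = 3) received neither. Combined replicates 2 and 3 carry other final digits in the name of the lipopeptide in 1 label field and are treated here as equal to replicate 1. No label says whether replicates came from separate cultures or animals, so p-values measure the spread between these libraries, which may be technical, nor whether the first agent was removed or when Control and Pam3CSK4 cells were collected. Total counts per library lay between 15033702 and 20321017.

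All 10 microglial marker genes examined had at least 1 FPKM in every library. Their summed level was 2265 to 2388 FPKM in combined cells, 2948 to 3138 FPKM in Pam3CSK4 cells, 4399 to 4518 FPKM in IFN-gamma cells and 5207 to 7644 FPKM in Control cells. In this kind of sample, fewer cells of a type and less RNA per cell cannot be told apart. Genes of mural cells and fibroblasts, which contract vessels and lay down matrix, stood apart in 3 libraries. The 14 examined, called mural transcripts here, summed to 77.7 FPKM in combined replicate 3, 214.9 FPKM in IFN-gamma replicate 1 and 2547 FPKM in Control replicate 3, against 7.69 to 57.6 FPKM in the other 8. The neuronal marker genes summed to at most 10.8 FPKM and the astrocytic ones to at most 32.7 FPKM in any library. Most of each maximum was 1 gene in a library with mural transcripts: Tubb3, at 10.7 FPKM in IFN-gamma replicate 1, and Gja1, at 30.8 FPKM in Control replicate 3. Of 8 endothelial markers, 1 to 3 reached 1 FPKM in any library, and they summed to 2.83 to 5.03 FPKM in combined, 2.56 to 2.85 FPKM in Pam3CSK4, 23.1 to 29.1 FPKM in IFN-gamma and 17.2 to 26.6 FPKM in Control cells. The lower sums with Pam3CSK4 came mainly from Flt1, at 1.16 to 1.55 FPKM there and 11.0 to 28.3 FPKM elsewhere. Kdr went the other way, with 1.08 to 1.41 FPKM in combined and 0.344 to 0.450 FPKM in IFN-gamma cells. Pecam1 likewise had 0.403 to 0.708 FPKM in combined and 0.0739 to 0.202 FPKM in IFN-gamma cells. Cdh5 was highest in the 3 libraries with mural transcripts. It had 1.63 FPKM in combined replicate 3, 1.965 FPKM in IFN-gamma replicate 1 and 13.7 FPKM in Control replicate 3, and at most 0.250 FPKM elsewhere. Markers of other immune cells, 1 or 2 of 10 of them at 1 FPKM, summed to 12.8 to 18.7 FPKM in combined, 7.28 to 9.54 FPKM in Pam3CSK4, 4.62 to 7.78 FPKM in IFN-gamma and 4.93 to 8.91 FPKM in Control cells. Oligodendrocyte markers summed to 7.87 to 15.3 FPKM over all libraries. Their part in the carriers' differences was not tested.

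Members were read at very different levels. The mean over the 11 libraries ran between 0.989 and 168.9 FPKM with a median of 7.26 FPKM. For 55 members it was at least 10 FPKM, and for 8 at least 50 FPKM: Slc48a1, Slc15a3, Slc25a5, Slc7a8, Slc31a2, Slc3a2, Slc39a1 and Slc6a6. At least 2 FPKM was reached in all 4 groups by 115 members, in combined cells by 122, in Pam3CSK4 cells by 128, in IFN-gamma cells by 125 and in Control cells by 136. The group with the highest mean was combined for 19 members, Pam3CSK4 for 48, IFN-gamma for 24 and Control for 55. Together the 146 genes took 1.31 to 1.36% of all counts in combined cells, 1.34 to 1.37% in Pam3CSK4 cells, 1.03 to 1.04% in IFN-gamma cells and 1.06 to 1.12% in Control cells. Slc15a3, Slc48a1, Slc31a2 and Slc25a10, picked after their values were seen, held 0.302 to 0.341% of counts in combined cells, 0.308% in both Pam3CSK4 libraries, 0.0941 to 0.107% in IFN-gamma cells and 0.0707 to 0.0955% in Control cells. Without these 4 genes the members' share lay between 0.928 and 1.07% in all 11 libraries. Nearest the level that defined membership, Slc25a43 and Slc37a3 stayed outside with highest group means of 1.91 and 1.73 FPKM, and Slc39a3 and Slc4a1ap stood inside at 2.07 and 2.08 FPKM.

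Differences were tested with edgeR across all 10938 genes with at least 1 FPKM in at least 2 libraries, and a gene is said to have risen or fallen where its Benjamini-Hochberg adjusted p was under 0.05. Counts below cover the 130 members with a mean of at least 2 FPKM over all 11 libraries. The other 16 are given later by their values. Among the 130, 115 reached 2 FPKM in all 4 groups, 6 in 3 groups and 6 in 2 groups, while 3 (Slc46a3, Slc2a8 and Slc39a10) did so in Control cells only. The counts include those 9 of 1 or 2 groups, which were likely to differ by the way they entered, and which gave 1 of the rises and 5 of the falls after Pam3CSK4, 0 and 4 after IFN-gamma, and 1 and 3 in combined against IFN-gamma cells. After Pam3CSK4 against Control, 29 members rose and 27 fell, beside 20% and 21.4% of all tested genes (22.3% and 20.8% of the members). After IFN-gamma against Control, 21 rose and 37 fell, beside 20% and 21.6% of all tested genes (16.2% and 28.5% of the members). In combined against IFN-gamma cells, 35 rose and 23 fell, beside 17% and 17.2% of all tested genes (26.9% and 17.7% of the members). The members' median log2 change was -0.01, -0.14 and 0.06 in these 3 comparisons, and that of all tested genes -0.04, -0.07 and -0.02. In combined against Control cells, 32 rose and 37 fell, beside 23.4% and 24.2% of all tested genes. In combined against Pam3CSK4 cells, 9 rose and 3 fell, beside 6.06% and 3.04% of all tested genes. The members' shares lay close to those of all tested genes after Pam3CSK4. They lay further from them in the falls after IFN-gamma and the rises of combined against IFN-gamma cells, which rest on the same IFN-gamma libraries. Of the 8500 tested genes that also averaged at least 2 FPKM over all 11 libraries, 22.8% rose and 20.5% fell after Pam3CSK4. After IFN-gamma 23.2% and 20.7% did so, and 18.35% and 18.25% in combined against IFN-gamma cells. Beside these genes the members' share of rises after IFN-gamma, 16.2%, was also lower.

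Some of these counts rest on few libraries. The 29 rises after Pam3CSK4 were 19 without Pam3CSK4 replicate 2, and the 23 falls in combined against IFN-gamma cells were 15 without combined replicate 1. The 9 rises in combined against Pam3CSK4 cells were 2 without either Pam3CSK4 replicate, 3 without combined replicate 1, 4 without combined replicate 2 and 14 without Control replicate 3. The 3 falls there were 1 without Pam3CSK4 replicate 1 or without any 1 combined replicate, 0 without Pam3CSK4 replicate 2 and 15 without Control replicate 3. Without the 3 libraries with mural transcripts, 35 members rose and 36 fell after Pam3CSK4, or 26.9% and 27.7% of the members, beside 26.35% and 27.4% of all tested genes. After IFN-gamma 25 rose and 47 fell, or 19.2% and 36.15%, beside 22.9% and 24.35% of all tested genes. Combined against IFN-gamma cells gave 40 rises and 25 falls, or 30.8% and 19.2%, beside 20.6% and 19.6% of all tested genes.

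**Figure D1:**
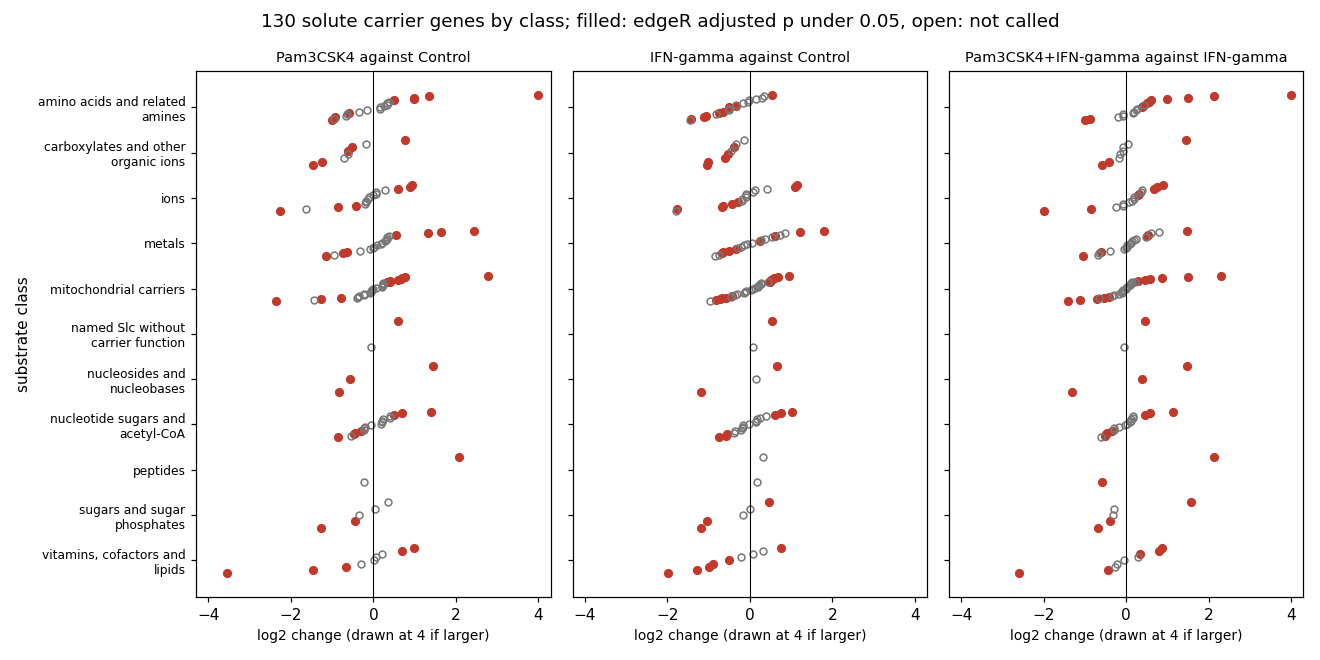
Log2 change of the 130 carriers by substrate class in 3 comparisons; each point is a gene, filled red where the edgeR adjusted p was under 0.05 and open otherwise, and changes beyond 4 are drawn at 4. Called points lie on both sides of 0 in most classes. After IFN-gamma 0 of 8 carboxylate and organic ion carriers are called higher and 5 lower, beside 20% and 21.6% of all tested genes.

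Both copper carriers rose under each agent. Slc31a1 is the high-affinity importer of copper at the cell surface, and Slc31a2 is a related protein of endosomes and lysosomes that takes part in copper handling; the genes lie close together on chromosome 4. The RefSeq promoter windows of both (build GRCm38.p6, plus strand, 250 bases before to 50 after the annotated start) are shown for that reason. Slc6a12 was added because that carrier was found almost only in cells given Pam3CSK4. Of its windows, the 1 with a kB match was picked for printing. Capitals mark matches to motifs searched on both strands: the kB consensus, the metal response element core (TGCNCNC) and the E-box (CACGTG).
Slc31a1 chr4:62360451-62360750: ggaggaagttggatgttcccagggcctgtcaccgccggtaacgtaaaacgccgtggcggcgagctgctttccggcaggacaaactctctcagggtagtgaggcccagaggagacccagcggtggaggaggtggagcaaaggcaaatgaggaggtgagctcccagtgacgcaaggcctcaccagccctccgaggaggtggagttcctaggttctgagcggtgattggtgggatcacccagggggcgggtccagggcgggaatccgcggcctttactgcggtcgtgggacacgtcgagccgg
Slc31a2 chr4:62286179-62286478: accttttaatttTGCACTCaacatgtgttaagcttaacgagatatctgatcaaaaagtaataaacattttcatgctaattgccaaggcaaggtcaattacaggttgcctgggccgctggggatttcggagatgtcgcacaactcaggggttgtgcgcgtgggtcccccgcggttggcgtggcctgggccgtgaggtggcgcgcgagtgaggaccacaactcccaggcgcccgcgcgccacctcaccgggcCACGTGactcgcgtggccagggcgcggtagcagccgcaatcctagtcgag
Slc6a12 chr6:121342324-121342623: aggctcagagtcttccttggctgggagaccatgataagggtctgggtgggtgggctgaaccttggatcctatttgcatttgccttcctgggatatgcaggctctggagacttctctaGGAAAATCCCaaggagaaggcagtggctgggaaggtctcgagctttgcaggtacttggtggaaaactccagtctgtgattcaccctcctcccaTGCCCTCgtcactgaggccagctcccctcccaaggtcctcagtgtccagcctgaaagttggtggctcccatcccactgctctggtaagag
The Slc31a1 window held no match to these or to the GAS (TTCNNNGAA), ISRE and amino acid response element (TGATGNAA) letters. In Slc31a2 a metal response element core and an E-box were found, and in the printed window of Slc6a12 a kB and a metal response element match. RefSeq lists 5 windows for Slc6a12, and the other 4, which are not printed and lie further downstream, held no kB match. Since the printed window was picked for its kB match, that match is not a result. The window at chr6:121342826-121343125, placed on the gene start of the deposited table, held no match to any motif searched. Across 32851 mouse promoter windows of the same length, 1.47% held the kB letters, 51.0% the metal response element core, 7.15% the E-box, 8.30% GAS, 3.44% ISRE and 3.97% the amino acid response element. Of 153 windows found for 112 of the 146 members, the shares were 1.31%, 58.8%, 14.4%, 3.92%, 1.96% and 2.61%. A match is a description of letters only.

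Slc31a2 stood at 136, 127 and 129.9 FPKM in combined, 121 and 113 FPKM in Pam3CSK4, 46.4, 45.1 and 48.5 FPKM in IFN-gamma and 23.2, 23.7 and 16.7 FPKM in Control cells. All libraries that saw Pam3CSK4 were above all IFN-gamma libraries, and these above all Control libraries. The log2 change was 2.43 ± 0.179 (SE; edgeR adjusted p = 1.1e-05) after Pam3CSK4 and 1.23 ± 0.163 (SE; edgeR adjusted p = 3.5e-04) after IFN-gamma. It was 1.48 ± 0.164 (SE; edgeR adjusted p = 1.4e-04) in combined against IFN-gamma cells. Slc31a1 had 71.0, 68.9 and 69.0 FPKM in combined, 39.3 and 36.1 FPKM in Pam3CSK4, 47.0, 49.4 and 48.7 FPKM in IFN-gamma and 14.7, 16.0 and 13.7 FPKM in Control cells. The 4 groups did not overlap, with combined highest, IFN-gamma next, then Pam3CSK4, then Control. Its log2 change was 1.32 ± 0.118 (SE; edgeR adjusted p = 3.0e-05) after Pam3CSK4, 1.80 ± 0.110 (SE; edgeR adjusted p = 2.8e-06) after IFN-gamma and 0.52 ± 0.107 (SE; edgeR adjusted p = 0.0051) in combined against IFN-gamma cells. In combined against Pam3CSK4 cells it was 0.99 ± 0.123 (SE; edgeR adjusted p = 9.3e-04), so Slc31a1 rose with either agent added to the other. The interaction, which is the Pam3CSK4 effect in IFN-gamma-treated cells minus that in cells without IFN-gamma, was -0.81 ± 0.159 (SE; edgeR adjusted p = 0.01) for Slc31a1: the added effect was smaller than the effect alone. For Slc31a2 the interaction was -0.96 ± 0.239 (SE; edgeR adjusted p = 0.027), and that call was lost without Pam3CSK4 replicate 1, Pam3CSK4 replicate 2, IFN-gamma replicate 3, combined replicate 1, combined replicate 2 or combined replicate 3 (adjusted p from 0.056 to 0.086).

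The other 18 metal carriers counted were 9 importers of zinc and other metals of the Slc39 family, 6 zinc carriers of the Slc30 family and 3 magnesium carriers of the Slc41 family. Over all 20 metal carriers, with the lowest and highest count when 1 library was left out given as a range, the tests read as follows. After Pam3CSK4 against Control, 4 (range 2 to 6) rose and 3 (range 1 to 4) fell. After IFN-gamma against Control, 4 (range 3 to 6) rose and 4 (range 3 to 6) fell. In combined against IFN-gamma cells, 3 (range 2 to 5) rose and 2 (range 2 to 4) fell. Without the 3 libraries with mural transcripts these counts were 6 and 3, 6 and 5, and 6 and 4. With all 11 libraries the shares of the metal carriers were 20% and 15%, 20% and 20%, and 15% and 10%. Those of all tested genes were 20% and 21.4%, 20% and 21.6%, and 17% and 17.2%. Without Pam3CSK4 replicate 2 the Pam3CSK4 counts were 2 and 1, and without Control replicate 3 those of combined against IFN-gamma cells were 5 and 4. Slc39a1, a zinc importer of the cell surface, ran at 52.7 to 64.9 FPKM over the 11 libraries. Slc39a4, another zinc importer, ran at 29.9 to 78.8 FPKM and fell after IFN-gamma by a log2 change of -0.66 ± 0.193 (SE; edgeR adjusted p = 0.022), a call lost without IFN-gamma replicate 2, Control replicate 1 or Control replicate 2 (adjusted p from 0.061 to 0.075). Slc30a4, which moves zinc into vesicles, had 2.60, 2.71 and 2.43 FPKM in combined, 2.44 and 1.56 FPKM in Pam3CSK4, 6.23, 5.58 and 4.07 FPKM in IFN-gamma and 3.55, 3.24 and 6.58 FPKM in Control cells. It fell in combined against IFN-gamma cells, by a log2 change of -1.04 ± 0.243 (SE; edgeR adjusted p = 0.0095), and Control replicate 3 stood well above the other Control libraries. Slc39a7, which releases zinc from the endoplasmic reticulum, spread widely within groups, with 27.6, 15.03 and 14.7 FPKM in combined, 18.3 and 33.0 FPKM in Pam3CSK4, 17.8, 8.13 and 7.26 FPKM in IFN-gamma and 9.38, 5.11 and 10.2 FPKM in Control cells. After Pam3CSK4 it rose by a log2 change of 1.64 ± 0.451 (SE; edgeR adjusted p = 0.017), a call lost without Pam3CSK4 replicate 2 or Control replicate 2 (adjusted p from 0.051 to 0.15). Slc41a3 had 3.76, 3.55 and 3.78 FPKM in combined, 4.73 and 4.64 FPKM in Pam3CSK4, 5.50, 5.24 and 6.01 FPKM in IFN-gamma and 7.88, 7.32 and 6.43 FPKM in Control cells. Every combined library was below every other library, and IFN-gamma and Control libraries did not overlap. It fell after Pam3CSK4 by a log2 change of -0.64 ± 0.149 (SE; edgeR adjusted p = 0.0072) and in combined against IFN-gamma cells by a log2 change of -0.60 ± 0.131 (SE; edgeR adjusted p = 0.0067). Slc41a1 fell after Pam3CSK4 by a log2 change of -0.74 ± 0.210 (SE; edgeR adjusted p = 0.019), a call lost without either Pam3CSK4 replicate, and Slc41a2 was not called in any comparison. Slc39a14, an importer of zinc, iron and manganese, and Slc30a1, the zinc exporter of the cell surface, were not called in any comparison (edgeR adjusted p after Pam3CSK4 = 0.44 and 0.71). Both stood apart in Control replicate 3, Slc39a14 above and Slc30a1 below the other Control libraries. Slc39a14 had 2.57, 2.77 and 2.50 FPKM in combined, 4.49 and 4.23 FPKM in Pam3CSK4, 2.25, 1.51 and 1.42 FPKM in IFN-gamma and 2.18, 1.96 and 6.07 FPKM in Control cells. Slc30a1 had 2.56, 2.68 and 2.68 FPKM in combined, 1.19 and 2.08 FPKM in Pam3CSK4, 4.54, 3.68 and 2.14 FPKM in IFN-gamma and 2.47, 2.98 and 0.462 FPKM in Control cells. In IFN-gamma replicate 1, which also had mural transcripts, Slc30a1 was the highest of all libraries. The part of other cells in the levels of Slc39a14 and Slc30a1 was not tested.

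A list of other zinc and copper genes, drawn up with earlier results known, moved in part. Of 8 genes tested of 11, 3 (range 1 to 5) rose and 1 (range 1 to 2) fell after Pam3CSK4, 4 (range 3 to 5) rose and 0 (range 0 to 0) fell after IFN-gamma, and 6 (range 5 to 6) rose and 2 (range 1 to 2) fell in combined against Control cells. Of all tested genes, 20% and 21.4%, 20% and 21.6%, and 23.4% and 24.2% did so. The metallothionein Mt2, a small protein that binds zinc and copper, averaged 117 ± 24.8 FPKM in combined, 42.3 ± 2.33 FPKM in Pam3CSK4, 90.4 ± 12.1 FPKM in IFN-gamma and 27.6 ± 13.3 FPKM in Control cells (SD). Its log2 change after IFN-gamma was 1.84 ± 0.262 (SE; edgeR adjusted p = 5.3e-04). Atox1, the chaperone that carries copper to the Golgi pumps, averaged 124 ± 2.85 FPKM in combined, 123 ± 4.56 FPKM in Pam3CSK4, 273 ± 28.2 FPKM in IFN-gamma and 245 ± 41.7 FPKM in Control cells (SD). It fell after Pam3CSK4, by a log2 change of -1.02 ± 0.191 (SE; edgeR adjusted p = 0.0023), and in combined against IFN-gamma cells, by a log2 change of -1.15 ± 0.167 (SE; edgeR adjusted p = 7.2e-04). Atp7a, the copper pump that Atox1 feeds, rose after IFN-gamma by a log2 change of 0.79 ± 0.185 (SE; edgeR adjusted p = 0.0079), and Cox17, which hands copper to mitochondria, rose by a log2 change of 0.83 ± 0.148 (SE; edgeR adjusted p = 0.0018). Cp, with the largest called change of this list, averaged 15.7 ± 0.722 FPKM in combined, 14.4 ± 2.16 FPKM in Pam3CSK4, 0.492 ± 0.613 FPKM in IFN-gamma and 1.05 ± 1.72 FPKM in Control cells (SD). Since its level came mainly from cells given Pam3CSK4, no test is given, although it is among the rises of combined against Control cells.

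**Figure D2:**
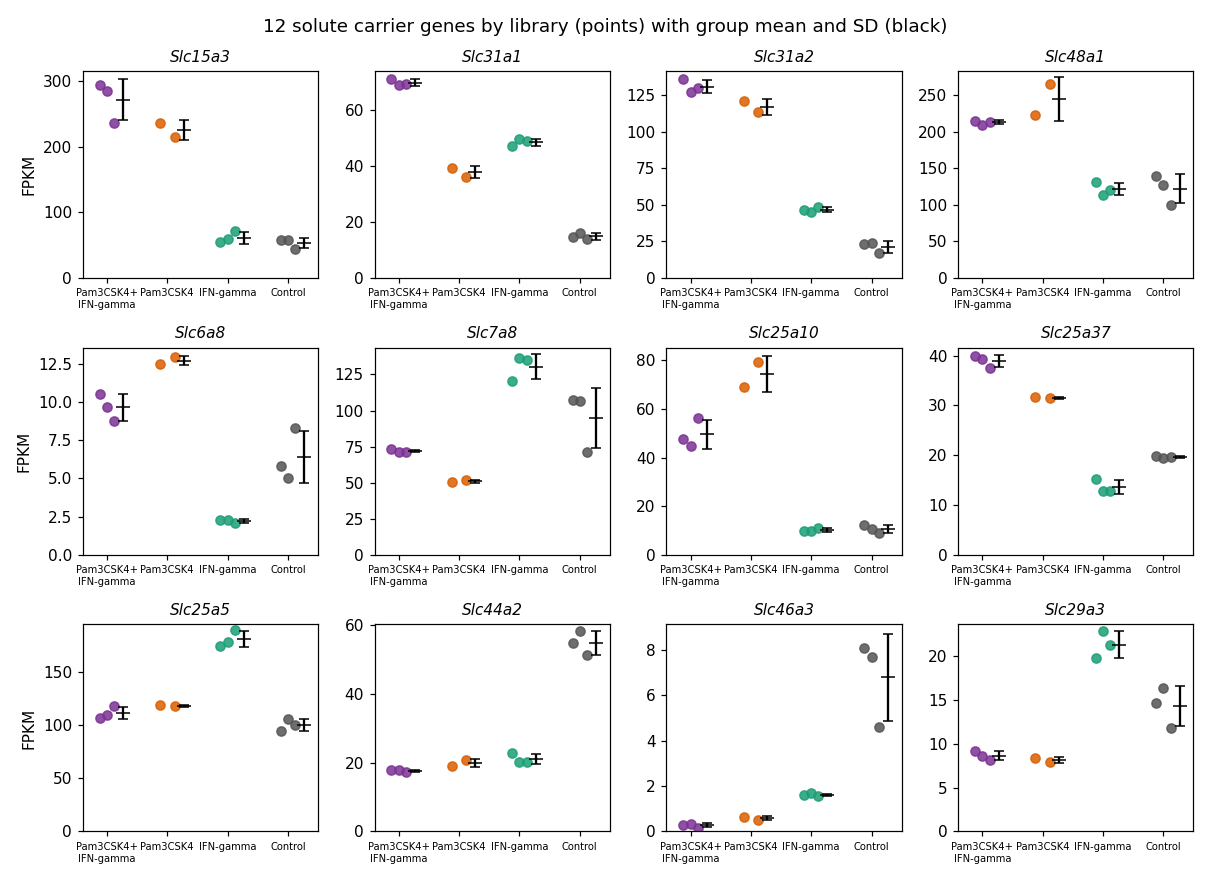
FPKM of 12 carriers in each library (points; purple Pam3CSK4+IFN-gamma, orange Pam3CSK4, green IFN-gamma, grey Control), with the group mean and SD in black; every vertical axis starts at 0. Slc15a3, Slc48a1, Slc31a2 and Slc25a10 are high in all 5 libraries that saw Pam3CSK4, and Slc31a1 separates all 4 groups.

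Both peptide carriers of the group sit in the membranes of endosomes and lysosomes and move histidine and short peptides with protons into the cytosol. Slc15a3 had 294, 286 and 237 FPKM in combined, 236 and 214 FPKM in Pam3CSK4, 54.1, 58.4 and 71.4 FPKM in IFN-gamma and 57.2, 57.2 and 43.9 FPKM in Control cells. The 5 libraries that saw Pam3CSK4 lay far above the other 6, and every combined library was above both Pam3CSK4 libraries, the lowest only just. The log2 change was 2.07 ± 0.201 (SE; edgeR adjusted p = 5.2e-05) after Pam3CSK4 and 2.14 ± 0.189 (SE; edgeR adjusted p = 3.8e-05) in combined against IFN-gamma cells. After IFN-gamma alone it was not called (edgeR adjusted p = 0.2). The exons of Slc15a3 share 1529 bases with Tmem132a on the other strand, and the sources used here do not give a strand setting, so reads of both genes cannot be told apart there. Tmem132a stood at 56.0, 53.2 and 45.2 FPKM in combined, 46.7 and 45.9 FPKM in Pam3CSK4, 16.0, 12.9 and 15.4 FPKM in IFN-gamma and 19.3, 17.8 and 22.9 FPKM in Control cells, higher in the same libraries. Slc15a4, which in mice is needed for signalling by Toll-like receptors of the endosome, was low, with 2.53, 2.44 and 1.76 FPKM in combined, 3.01 and 2.54 FPKM in Pam3CSK4, 3.27, 3.32 and 3.49 FPKM in IFN-gamma and 3.12, 3.26 and 3.27 FPKM in Control cells. It fell in combined against IFN-gamma cells, by a log2 change of -0.59 ± 0.139 (SE; edgeR adjusted p = 0.0099).

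Of 12 genes of endolysosomal peptide and nucleic acid sensing, 2 (range 0 to 2) rose and 0 (range 0 to 2) fell after Pam3CSK4, 5 (range 3 to 6) rose and 1 (range 1 to 3) fell after IFN-gamma, and 1 (range 0 to 4) rose and 2 (range 2 to 2) fell in combined against IFN-gamma cells. The shares of all tested genes were 20% and 21.4%, 20% and 21.6%, and 17% and 17.2%. Nod1, a cytosolic sensor of bacterial peptidoglycan fragments, averaged 19.0 ± 1.23 FPKM in combined, 4.20 ± 0.693 FPKM in Pam3CSK4, 18.5 ± 1.28 FPKM in IFN-gamma and 3.01 ± 0.598 FPKM in Control cells (SD). Its log2 change after IFN-gamma was 2.73 ± 0.146 (SE; edgeR adjusted p = 1.2e-06). Nod2, a related sensor, rose by a log2 change of 1.60 ± 0.167 (SE; edgeR adjusted p = 8.1e-05) after IFN-gamma. Irf5, a transcription factor that acts downstream of Toll-like receptors, averaged 61.9 ± 7.74 FPKM in combined, 62.4 ± 4.94 FPKM in Pam3CSK4, 125 ± 1.95 FPKM in IFN-gamma and 75.7 ± 16.1 FPKM in Control cells (SD). It rose after IFN-gamma by a log2 change of 0.81 ± 0.182 (SE; edgeR adjusted p = 0.0064) and fell in combined against IFN-gamma cells by a log2 change of -1.02 ± 0.183 (SE; edgeR adjusted p = 0.0023).

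Amino acids enter macrophages largely through heteromeric exchangers, in which a light chain of the Slc7 family is held at the surface by the heavy chain Slc3a2. Of 19 carriers of amino acids, taurine, creatine, betaine and related amines, the counts called were as follows, with ranges over libraries left out. Pam3CSK4 raised 5 (range 4 to 7) and lowered 3 (range 2 to 4) against Control. IFN-gamma raised 1 (range 0 to 2) and lowered 7 (range 7 to 10) against Control. Between combined and IFN-gamma cells, 9 (range 6 to 9) were higher and 2 (range 1 to 2) lower. These counts were 7 and 4, 2 and 9, and 10 and 2 when the 3 libraries with mural transcripts were left out. As shares of the class with all 11 libraries, they were 26.3% and 15.8%, 5.26% and 36.8%, and 47.4% and 10.5%. Those of all tested genes were 20% and 21.4%, 20% and 21.6%, and 17% and 17.2%. Slc7a8, a light chain that exchanges neutral amino acids, was the most abundant per length by its mean over all 11 libraries, with 72.9, 71.4 and 71.4 FPKM in combined, 50.1 and 51.6 FPKM in Pam3CSK4, 121, 136 and 135 FPKM in IFN-gamma and 107, 106 and 71.0 FPKM in Control cells. It fell after Pam3CSK4, by a log2 change of -0.93 ± 0.209 (SE; edgeR adjusted p = 0.0063), and in combined against IFN-gamma cells, by a log2 change of -0.87 ± 0.183 (SE; edgeR adjusted p = 0.0056). All 5 libraries that saw Pam3CSK4 lay below all IFN-gamma libraries, and Control replicate 3 lay at the combined level. Slc3a2 itself rose in combined against Control cells, by a log2 change of 0.70 ± 0.129 (SE; edgeR adjusted p = 0.0016), with 94.9, 90.4 and 84.5 FPKM in combined, 70.5 and 79.3 FPKM in Pam3CSK4, 62.0, 66.5 and 73.1 FPKM in IFN-gamma and 62.4, 59.8 and 53.7 FPKM in Control cells.

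Slc6a8, the creatine importer, moved in opposite directions under the agents. It had 10.5, 9.68 and 8.79 FPKM in combined, 12.5 and 12.9 FPKM in Pam3CSK4, 2.29, 2.24 and 2.05 FPKM in IFN-gamma and 5.84, 5.05 and 8.31 FPKM in Control cells. The 3 IFN-gamma libraries were the lowest, and both Pam3CSK4 libraries the highest. It rose after Pam3CSK4 by a log2 change of 0.99 ± 0.140 (SE; edgeR adjusted p = 4.7e-04). After IFN-gamma it fell by a log2 change of -1.43 ± 0.131 (SE; edgeR adjusted p = 3.6e-05). It rose in combined against IFN-gamma cells by a log2 change of 2.13 ± 0.133 (SE; edgeR adjusted p = 4.4e-06). The log2 interaction was 1.14 ± 0.193 (SE; edgeR adjusted p = 0.0054). Slc38a6, a member of the neutral amino acid family Slc38 whose substrates are less settled, followed a like order at lower level, with 4.71, 4.83 and 4.72 FPKM in combined, 5.25 and 4.96 FPKM in Pam3CSK4, 1.75, 1.62 and 1.64 FPKM in IFN-gamma and 2.63, 2.57 and 2.38 FPKM in Control cells. Its log2 change was 0.99 ± 0.0982 (SE; edgeR adjusted p = 5.7e-05) after Pam3CSK4 and 1.503 ± 0.0912 (SE; edgeR adjusted p = 3.7e-06) in combined against IFN-gamma cells. Slc16a10, which passes aromatic amino acids, had 28.4, 30.5 and 33.0 FPKM in combined, 32.2 and 34.2 FPKM in Pam3CSK4, 15.7, 15.3 and 15.2 FPKM in IFN-gamma and 14.7, 13.4 and 10.5 FPKM in Control cells. The 5 libraries that saw Pam3CSK4 did not overlap the other 6, and the log2 change was 1.34 ± 0.167 (SE; edgeR adjusted p = 2.3e-04) after Pam3CSK4 and 0.98 ± 0.153 (SE; edgeR adjusted p = 0.0011) in combined against IFN-gamma cells.

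Slc6a12, the importer of betaine and GABA, was listed at 6.09, 6.25 and 9.29 FPKM in combined, 9.74 and 16.9 FPKM in Pam3CSK4, 0.0820, 0.0364 and 0 FPKM in IFN-gamma and 0.121, 0 and 0.114 FPKM in Control cells. It was present in the 5 libraries that saw Pam3CSK4 and at or near 0 in the other 6, so that it entered the level only through those 5 libraries, and no test is given, although it is among the rises counted above. Pam3CSK4 replicate 2 stood highest.

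Slc38a2 fell after IFN-gamma. This sodium-coupled carrier, which supplies neutral amino acids and is a known target of the amino acid response, had 19.9, 18.8 and 20.4 FPKM in combined, 28.6 and 29.5 FPKM in Pam3CSK4, 21.5, 14.97 and 12.4 FPKM in IFN-gamma and 34.2, 29.3 and 47.2 FPKM in Control cells. Its log2 change after IFN-gamma was -1.07 ± 0.180 (SE; edgeR adjusted p = 0.0013). Slc38a1, a relative, averaged 10.8 ± 0.437 FPKM in combined, 11.3 ± 0.926 FPKM in Pam3CSK4, 9.34 ± 4.78 FPKM in IFN-gamma and 21.7 ± 2.06 FPKM in Control cells (SD), and IFN-gamma replicate 1 stood apart at 3.89 FPKM. It fell after IFN-gamma by a log2 change of -1.10 ± 0.350 (SE; edgeR adjusted p = 0.03), and the change was -0.72 (adjusted p = 4.9e-04) without that library; the call was lost without Control replicate 1 or Control replicate 2 (adjusted p from 0.056 to 0.063). The taurine importer Slc6a6 changed little in size, 59.3 ± 2.26 FPKM in combined cells (SD, n = 3) and 45.2 ± 2.66 FPKM in IFN-gamma cells (SD, n = 3), a log2 rise of 0.39 ± 0.0915 (SE; edgeR adjusted p = 0.01). Slc43a2, which passes branched-chain and other large neutral amino acids by diffusion along their gradient, ran at 7.37 to 15.8 FPKM. It was higher in combined against IFN-gamma cells by a log2 change of 0.56 ± 0.190 (SE; edgeR adjusted p = 0.046), a call lost without any 1 library other than Control replicates 1 and 3.

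Slc7a5, the light chain that imports leucine and other large neutral amino acids, and Slc1a5, an exchanger of glutamine and other neutral amino acids, both stood highest in 1 Control library. Slc7a5 stood at 4.92, 4.73 and 4.37 FPKM in combined, 8.17 and 6.78 FPKM in Pam3CSK4, 3.61, 4.43 and 3.72 FPKM in IFN-gamma and 3.41, 3.51 and 29.9 FPKM in Control cells. Control replicate 3, the library with the most mural transcripts, was above every other library. After Pam3CSK4 the log2 change of Slc7a5 was -0.65 ± 0.755 (SE; edgeR adjusted p = 0.52), not called, and without the 3 libraries with mural transcripts it was 1.04 (adjusted p = 2.4e-04), a rise. Without Control replicate 3 alone it was 1.04 (adjusted p = 2.4e-04). Slc1a5 had 1.52, 1.35 and 1.67 FPKM in combined, 1.90 and 2.28 FPKM in Pam3CSK4, 3.03, 2.68 and 3.21 FPKM in IFN-gamma and 2.23, 1.99 and 5.92 FPKM in Control cells, again highest in Control replicate 3. It fell in combined against IFN-gamma cells, where the groups did not overlap, by a log2 change of -0.99 ± 0.322 (SE; edgeR adjusted p = 0.04), a call lost without Pam3CSK4 replicate 1, Pam3CSK4 replicate 2, IFN-gamma replicate 1, IFN-gamma replicate 2, IFN-gamma replicate 3, combined replicate 1, combined replicate 2 or combined replicate 3 (adjusted p from 0.056 to 0.12). Against Control cells combined cells were lower by a log2 change of -1.03 ± 0.322 (SE; edgeR adjusted p = 0.025), and without Control replicate 3 the change was -0.44 (adjusted p = 0.025). That call was lost without any 1 combined replicate. A pair of members picked after their values were seen showed the same library. Slc20a1, the sodium-coupled phosphate importer that also serves as a retrovirus receptor, ran at 5.21, 5.19 and 5.46 FPKM in combined, 6.01 and 4.99 FPKM in Pam3CSK4, 5.70, 3.89 and 4.16 FPKM in IFN-gamma and 6.03, 5.13 and 42.6 FPKM in Control cells, and Slc25a24, a mitochondrial exchanger of ATP-magnesium for phosphate, at 1.41, 0.971 and 1.49 FPKM in combined, 1.73 and 1.48 FPKM in Pam3CSK4, 2.36, 2.07 and 1.70 FPKM in IFN-gamma and 2.19, 1.16 and 10.2 FPKM in Control cells. The part of other cells in these levels was not tested.

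Of 12 genes of the amino acid response, the transcription programme that amino acid shortage starts, 1 (range 0 to 6) rose and 1 (range 1 to 3) fell after Pam3CSK4, 0 (range 0 to 3) rose and 4 (range 3 to 5) fell after IFN-gamma, and 4 (range 2 to 8) rose and 0 (range 0 to 0) fell in combined against IFN-gamma cells. The shares of all tested genes were 20% and 21.4%, 20% and 21.6%, and 17% and 17.2%. Some genes of this list spread widely between Control libraries, with Ddit4 at 13.8 ± 18.3 FPKM, Phgdh at 17.8 ± 14.8 FPKM and Asns at 11.3 ± 18.5 FPKM in Control cells (SD). Ddit4 and Phgdh are among the falls after IFN-gamma. Psat1, an enzyme of serine synthesis, averaged 21.8 ± 3.20 FPKM in combined, 24.0 ± 0.857 FPKM in Pam3CSK4, 25.0 ± 4.58 FPKM in IFN-gamma and 74.0 ± 2.73 FPKM in Control cells (SD). Its log2 change was -1.64 ± 0.167 (SE; edgeR adjusted p = 6.8e-05) after Pam3CSK4 and -1.47 ± 0.144 (SE; edgeR adjusted p = 5.5e-05) after IFN-gamma. Mthfd2, a mitochondrial enzyme of folate metabolism, averaged 24.3 ± 0.205 FPKM in combined, 18.5 ± 0.550 FPKM in Pam3CSK4, 12.0 ± 0.380 FPKM in IFN-gamma and 8.46 ± 5.02 FPKM in Control cells (SD), and it rose in combined against Control cells by a log2 change of 1.65 ± 0.278 (SE; edgeR adjusted p = 9.9e-04).

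Carriers of heme, choline, ascorbate, fatty acids and folate formed a class of 9, in which the counts were as follows. Against Control, 2 (range 1 to 2) rose and 3 (range 3 to 4) fell with Pam3CSK4. With IFN-gamma, 1 (range 1 to 1) rose and 5 (range 4 to 5) fell. Combined cells had 3 (range 2 to 3) higher and 2 (range 1 to 3) lower than IFN-gamma cells. Leaving out the 3 libraries with mural transcripts gave 2 and 4, 1 and 5, and 4 and 2. Shares of the class with all 11 libraries were 22.2% and 33.3%, 11.1% and 55.6%, and 33.3% and 22.2%. Those of all tested genes were 20% and 21.4%, 20% and 21.6%, and 17% and 17.2%. Without Pam3CSK4 replicate 2 the rises after Pam3CSK4 numbered 1. Slc48a1, which brings heme out of the lysosome after red cells or other heme proteins are digested, was the most abundant member by its mean over all libraries. It had 215, 209.7 and 213 FPKM in combined, 223 and 266 FPKM in Pam3CSK4, 131, 114 and 121 FPKM in IFN-gamma and 139, 127 and 100.0 FPKM in Control cells. The 5 libraries that saw Pam3CSK4 all exceeded the other 6, and IFN-gamma and Control libraries overlapped. The log2 change was 0.97 ± 0.172 (SE; edgeR adjusted p = 0.0017) after Pam3CSK4 and 0.80 ± 0.157 (SE; edgeR adjusted p = 0.0038) in combined against IFN-gamma cells. Its exons share 29 bases with Hdac7 on the other strand.

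Slc44a2, a choline carrier of the cell surface and of mitochondria, showed the reverse, with 17.7, 17.9 and 17.2 FPKM in combined, 19.2 and 20.7 FPKM in Pam3CSK4, 22.7, 20.2 and 20.3 FPKM in IFN-gamma and 54.6, 58.1 and 51.2 FPKM in Control cells. All 8 treated libraries lay below all 3 Control libraries, by a wide gap. Pam3CSK4 lowered it by a log2 change of -1.48 ± 0.119 (SE; edgeR adjusted p = 1.8e-05) and IFN-gamma by a log2 change of -1.28 ± 0.103 (SE; edgeR adjusted p = 1.6e-05). The log2 interaction was 1.21 ± 0.154 (SE; edgeR adjusted p = 0.0015). Combined cells stood only slightly below IFN-gamma cells. Slc46a3, a lysosomal carrier, reached the level only in Control cells, so its difference from Control is given by its values, with no test. It was listed at 0.280, 0.344 and 0.173 FPKM in combined, 0.653 and 0.523 FPKM in Pam3CSK4, 1.60, 1.68 and 1.55 FPKM in IFN-gamma and 8.07, 7.71 and 4.60 FPKM in Control cells. The 4 groups did not overlap, with combined lowest, then Pam3CSK4, then IFN-gamma. In combined against IFN-gamma cells the log2 change was -2.60 ± 0.316 (SE; edgeR adjusted p = 2.5e-04). Slc23a2, the ascorbate importer, averaged 34.9 ± 2.23 FPKM in combined, 24.4 ± 0.501 FPKM in Pam3CSK4, 46.9 ± 3.46 FPKM in IFN-gamma and 29.6 ± 3.86 FPKM in Control cells (SD), a log2 rise of 0.75 ± 0.138 (SE; edgeR adjusted p = 0.0021) after IFN-gamma. Slc27a1, which takes up and activates long-chain fatty acids, averaged 40.0 ± 1.40 FPKM in combined, 54.6 ± 11.5 FPKM in Pam3CSK4, 21.7 ± 1.85 FPKM in IFN-gamma and 33.1 ± 5.35 FPKM in Control cells (SD) and rose in combined against IFN-gamma cells by a log2 change of 0.87 ± 0.167 (SE; edgeR adjusted p = 0.0033).

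All 3 nucleoside and nucleobase carriers changed, each in its own way, and the counts called were the same with any 1 library left out. Of all tested genes 20% rose and 21.4% fell after Pam3CSK4, 20% and 21.6% after IFN-gamma, and 17% and 17.2% in combined against IFN-gamma cells. Slc43a3, a purine nucleobase carrier, had 12.5, 11.6 and 11.4 FPKM in combined, 11.8 and 10.9 FPKM in Pam3CSK4, 4.32, 4.55 and 3.88 FPKM in IFN-gamma and 4.06, 3.90 and 4.35 FPKM in Control cells. The 5 libraries that saw Pam3CSK4 lay above the other 6, and the log2 change was 1.45 ± 0.0810 (SE; edgeR adjusted p = 2.4e-06) after Pam3CSK4 and 1.47 ± 0.0748 (SE; edgeR adjusted p = 1.3e-06) in combined against IFN-gamma cells. Slc29a3, the equilibrative nucleoside carrier of lysosomes, had 9.13, 8.62 and 8.12 FPKM in combined, 8.40 and 7.94 FPKM in Pam3CSK4, 19.7, 22.8 and 21.3 FPKM in IFN-gamma and 14.6, 16.3 and 11.8 FPKM in Control cells. Pam3CSK4 lowered it by a log2 change of -0.83 ± 0.175 (SE; edgeR adjusted p = 0.0045). It rose after IFN-gamma by a log2 change of 0.67 ± 0.153 (SE; edgeR adjusted p = 0.0069) and fell in combined against IFN-gamma cells by a log2 change of -1.31 ± 0.155 (SE; edgeR adjusted p = 2.0e-04). Combined and Pam3CSK4 libraries held about the same level. Slc29a1, the equilibrative carrier of the cell surface that takes up adenosine, had 5.27, 5.80 and 5.73 FPKM in combined, 7.09 and 7.09 FPKM in Pam3CSK4, 4.35, 4.11 and 4.28 FPKM in IFN-gamma and 10.5, 9.90 and 10.5 FPKM in Control cells. All groups were apart, with IFN-gamma lowest, then combined, then Pam3CSK4. Against Control it fell by a log2 change of -0.56 ± 0.0863 (SE; edgeR adjusted p = 8.4e-04) after Pam3CSK4 and by a log2 change of -1.18 ± 0.0772 (SE; edgeR adjusted p = 4.4e-06) after IFN-gamma. The log2 interaction was 0.95 ± 0.115 (SE; edgeR adjusted p = 0.0012).

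Carriers of the Slc25 family sit mainly in the inner mitochondrial membrane and formed the largest class, with 28 members counted. After Pam3CSK4 against Control, 8 (range 6 to 8) rose and 3 (range 3 to 4) fell. After IFN-gamma against Control, 7 (range 4 to 10) rose and 5 (range 4 to 6) fell. In combined against IFN-gamma cells, 6 (range 5 to 6) rose and 5 (range 4 to 5) fell. Without the 3 libraries with mural transcripts these counts were 8 and 4, 7 and 7, and 6 and 5. With all 11 libraries the shares of the class were 28.6% and 10.7%, 25% and 17.9%, and 21.4% and 17.9%. Those of all tested genes were 20% and 21.4%, 20% and 21.6%, and 17% and 17.2%. Without IFN-gamma replicate 3 the rises after IFN-gamma numbered 4. Slc25a10, which exchanges malate and succinate for phosphate, had 47.6, 44.9 and 56.3 FPKM in combined, 69.0 and 79.4 FPKM in Pam3CSK4, 9.59, 9.74 and 10.9 FPKM in IFN-gamma and 12.3, 10.6 and 8.86 FPKM in Control cells. The 5 libraries that saw Pam3CSK4 did not overlap the other 6, and the 2 Pam3CSK4 libraries were the highest. The log2 change was 2.78 ± 0.185 (SE; edgeR adjusted p = 6.6e-06) after Pam3CSK4 and 2.29 ± 0.172 (SE; edgeR adjusted p = 1.3e-05) in combined against IFN-gamma cells. Slc25a11, which exchanges oxoglutarate for malate, changed much less, 38.0 ± 1.13 FPKM in Pam3CSK4 cells (SD, n = 2) and 24.8 ± 2.26 FPKM in Control cells (SD, n = 3), a log2 rise of 0.59 ± 0.117 (SE; edgeR adjusted p = 0.0032). Slc25a37, the mitochondrial iron importer called mitoferrin, had 40.0, 39.4 and 37.5 FPKM in combined, 31.6 and 31.4 FPKM in Pam3CSK4, 15.3, 12.9 and 12.8 FPKM in IFN-gamma and 19.8, 19.3 and 19.7 FPKM in Control cells. All groups were apart, with combined highest and IFN-gamma lowest. Pam3CSK4 raised it by a log2 change of 0.67 ± 0.0959 (SE; edgeR adjusted p = 5.3e-04), and IFN-gamma lowered it by a log2 change of -0.43 ± 0.0870 (SE; edgeR adjusted p = 0.0038). It rose in combined against IFN-gamma cells by a log2 change of 1.51 ± 0.0887 (SE; edgeR adjusted p = 3.0e-06). The log2 interaction was 0.84 ± 0.131 (SE; edgeR adjusted p = 0.0038).

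Slc25a5, an exchanger of ADP for ATP, went the other way. It had 107, 109.5 and 118 FPKM in combined, 119 and 117 FPKM in Pam3CSK4, 174, 178 and 189.6 FPKM in IFN-gamma and 94.2, 105 and 100.2 FPKM in Control cells. The 3 IFN-gamma libraries lay above the other 8. It rose after IFN-gamma by a log2 change of 0.95 ± 0.0937 (SE; edgeR adjusted p = 5.6e-05). In combined against IFN-gamma cells it fell by a log2 change of -0.71 ± 0.0933 (SE; edgeR adjusted p = 4.0e-04). The log2 interaction was -0.93 ± 0.139 (SE; edgeR adjusted p = 0.003). Near-identical processed copies of this gene exist in the genome, and how shared reads were counted is not given in the sources used here. Its relative Slc25a4 and the phosphate importer Slc25a3 were not called in any comparison and ran at 35.8 to 63.1 FPKM and 38.6 to 50.9 FPKM. Slc25a38, which imports glycine for heme synthesis, had 3.68, 3.55 and 3.42 FPKM in combined, 3.55 and 3.28 FPKM in Pam3CSK4, 7.08, 8.22 and 7.74 FPKM in IFN-gamma and 6.14, 6.33 and 4.79 FPKM in Control cells. It fell after Pam3CSK4 by a log2 change of -0.78 ± 0.171 (SE; edgeR adjusted p = 0.0056) and in combined against IFN-gamma cells by a log2 change of -1.12 ± 0.150 (SE; edgeR adjusted p = 4.4e-04). Slc25a23, an exchanger of ATP-magnesium for phosphate, was lowest wherever Pam3CSK4 was given, with 0.933, 0.953 and 0.950 FPKM in combined, 0.785 and 0.933 FPKM in Pam3CSK4, 2.19, 2.44 and 2.85 FPKM in IFN-gamma and 5.10, 4.45 and 3.48 FPKM in Control cells and no test, since only IFN-gamma and Control cells reached the level. Slc25a15, the ornithine carrier of the urea cycle, averaged 1.75 ± 0.145 FPKM in combined, 1.57 ± 0.316 FPKM in Pam3CSK4, 2.54 ± 0.509 FPKM in IFN-gamma and 3.76 ± 0.672 FPKM in Control cells (SD), and likewise has no test. Slc25a30, whose substrates are less settled, averaged 6.88 ± 0.557 FPKM in combined, 6.83 ± 0.00330 FPKM in Pam3CSK4, 4.60 ± 0.718 FPKM in IFN-gamma and 8.76 ± 1.45 FPKM in Control cells (SD) and fell after IFN-gamma by a log2 change of -0.82 ± 0.134 (SE; edgeR adjusted p = 0.0011).

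Of 8 carriers of carboxylates and other organic ions, most of those called were lower in treated cells. Pam3CSK4 raised 1 (range 1 to 1) and lowered 4 (range 2 to 5) against Control. IFN-gamma raised 0 (range 0 to 0) and lowered 5 (range 5 to 6) against Control. Between combined and IFN-gamma cells, 1 (range 1 to 1) were higher and 2 (range 0 to 2) lower. These counts were 1 and 5, 0 and 6, and 1 and 2 when the 3 libraries with mural transcripts were left out. As shares of the class with all 11 libraries, they were 12.5% and 50%, 0% and 62.5%, and 12.5% and 25%. Those of all tested genes were 20% and 21.4%, 20% and 21.6%, and 17% and 17.2%. Without Pam3CSK4 replicate 1 the falls after Pam3CSK4 numbered 2. In combined against Control cells 1 rose and 6 fell, beside 23.4% and 24.2% of all tested genes. Slc22a4, the carrier of the antioxidant ergothioneine, was the exception, with 12.1, 12.1 and 11.1 FPKM in combined, 11.4 and 11.5 FPKM in Pam3CSK4, 4.66, 4.07 and 4.23 FPKM in IFN-gamma and 7.41, 6.11 and 6.44 FPKM in Control cells. The log2 change after Pam3CSK4 was 0.77 ± 0.114 (SE; edgeR adjusted p = 6.5e-04) and the fall after IFN-gamma -0.53 ± 0.105 (SE; edgeR adjusted p = 0.0034). It rose in combined against IFN-gamma cells by a log2 change of 1.44 ± 0.106 (SE; edgeR adjusted p = 1.1e-05). Slc22a17, a receptor for lipocalin 2, had 11.5, 10.2 and 7.61 FPKM in combined, 9.20 and 8.89 FPKM in Pam3CSK4, 14.0, 12.99 and 16.7 FPKM in IFN-gamma and 21.5, 23.9 and 18.5 FPKM in Control cells and fell after Pam3CSK4 by a log2 change of -1.26 ± 0.217 (SE; edgeR adjusted p = 0.0015). Slc16a6, which exports ketone bodies from the liver in zebrafish, had 4.28, 4.31 and 4.01 FPKM in combined, 3.97 and 3.67 FPKM in Pam3CSK4, 5.23, 4.94 and 4.08 FPKM in IFN-gamma and 12.9, 9.36 and 8.91 FPKM in Control cells. All treated libraries were below all Control libraries, and the log2 change was -1.47 ± 0.189 (SE; edgeR adjusted p = 2.7e-04) after Pam3CSK4 and -1.04 ± 0.162 (SE; edgeR adjusted p = 9.0e-04) after IFN-gamma. Slc16a6 shares 1052 exon bases with Amz2 and 48 with Arsg on the other strand; Arsg stood at 0.574, 0.668 and 0.436 FPKM in combined, 0.455 and 0.291 FPKM in Pam3CSK4, 0.512, 0.368 and 0.408 FPKM in IFN-gamma and 2.58, 2.76 and 2.60 FPKM in Control cells, also highest in Control, and reads of these genes cannot be told apart where they overlap. Slc10a3, whose substrate is not settled, ran at 4.56 to 8.73 FPKM and fell after Pam3CSK4 by a log2 change of -0.52 ± 0.130 (SE; edgeR adjusted p = 0.011), a call lost without Pam3CSK4 replicate 1 (adjusted p = 0.082).

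The 5 carriers of sugars and sugar phosphates that were counted were modest in level, the main glucose importers having been left out by name. Against Control, 0 (range 0 to 0) rose and 2 (range 1 to 3) fell with Pam3CSK4. With IFN-gamma, 1 (range 1 to 1) rose and 2 (range 2 to 3) fell. Combined cells had 1 (range 1 to 1) higher and 2 (range 1 to 3) lower than IFN-gamma cells. Leaving out the 3 libraries with mural transcripts gave 0 and 3, 1 and 3, and 1 and 2. Shares of the class with all 11 libraries were 0% and 40%, 20% and 40%, and 20% and 40%. Those of all tested genes were 20% and 21.4%, 20% and 21.6%, and 17% and 17.2%. Slc37a2, which exchanges sugar phosphates for phosphate in the endoplasmic reticulum, had the highest mean of the class over all libraries, at 22.7 to 38.4 FPKM, and was lower in combined against Control cells by a log2 change of -0.48 ± 0.142 (SE; edgeR adjusted p = 0.021), a call lost without combined replicate 1, combined replicate 2, combined replicate 3, Control replicate 1 or Control replicate 2 (adjusted p from 0.052 to 0.073). Slc37a4, the glucose 6-phosphate carrier of the same membrane, had 4.81, 5.48 and 5.14 FPKM in combined, 6.69 and 7.05 FPKM in Pam3CSK4, 8.27, 8.20 and 8.01 FPKM in IFN-gamma and 9.45, 8.44 and 8.02 FPKM in Control cells and fell in combined against IFN-gamma cells by a log2 change of -0.67 ± 0.121 (SE; edgeR adjusted p = 0.0023). Slc2a8, a hexose carrier of intracellular membranes, had 1.74, 1.71 and 1.16 FPKM in combined, 1.86 and 2.05 FPKM in Pam3CSK4, 1.85, 1.85 and 2.06 FPKM in IFN-gamma and 4.93, 5.08 and 3.91 FPKM in Control cells. Treated libraries all lay below Control libraries, and since its group mean reached the level only in Control cells, no test is given. Slc45a3, of a family of proton-coupled sugar carriers, had 3.45, 2.80 and 2.61 FPKM in combined, 2.85 and 2.72 FPKM in Pam3CSK4, 1.09, 0.757 and 1.09 FPKM in IFN-gamma and 2.05, 2.46 and 1.90 FPKM in Control cells, lowest in IFN-gamma cells. It fell after IFN-gamma by a log2 change of -1.03 ± 0.194 (SE; edgeR adjusted p = 0.0025) and rose in combined against IFN-gamma cells by a log2 change of 1.58 ± 0.196 (SE; edgeR adjusted p = 2.7e-04). Slc50a1, a sugar carrier, rose after IFN-gamma by a log2 change of 0.46 ± 0.1002 (SE; edgeR adjusted p = 0.0051).

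Nucleotide sugar and acetyl-CoA carriers, which supply the Golgi apparatus and the endoplasmic reticulum with building blocks for glycosylation and acetylation, numbered 18. After Pam3CSK4 against Control, 3 (range 2 to 5) rose and 4 (range 1 to 6) fell. After IFN-gamma against Control, 3 (range 3 to 4) rose and 3 (range 2 to 4) fell. In combined against IFN-gamma cells, 3 (range 1 to 3) rose and 4 (range 1 to 5) fell. Without the 3 libraries with mural transcripts these counts were 4 and 6, 3 and 5, and 3 and 4. With all 11 libraries the shares of the class were 16.7% and 22.2%, 16.7% and 16.7%, and 16.7% and 22.2%. Those of all tested genes were 20% and 21.4%, 20% and 21.6%, and 17% and 17.2%. Without Pam3CSK4 replicates 1 and 2 the falls after Pam3CSK4 numbered 2 and 1, and without Control replicate 1 the rises numbered 5. Between combined and IFN-gamma cells, rises numbered 1 without IFN-gamma replicate 1 or combined replicate 2, and falls 1 or 2 without Pam3CSK4 replicate 2, IFN-gamma replicate 2 or any 1 combined replicate. Slc33a1, the acetyl-CoA importer, averaged 10.7 ± 0.342 FPKM in combined, 6.93 ± 1.24 FPKM in Pam3CSK4, 15.01 ± 2.53 FPKM in IFN-gamma and 7.93 ± 1.92 FPKM in Control cells (SD) and rose after IFN-gamma by a log2 change of 1.03 ± 0.171 (SE; edgeR adjusted p = 0.0013). Slc35b1, which brings ATP into the endoplasmic reticulum, had 23.8, 22.5 and 24.1 FPKM in combined, 26.2 and 27.2 FPKM in Pam3CSK4, 30.6, 27.7 and 30.5 FPKM in IFN-gamma and 17.7, 20.9 and 17.2 FPKM in Control cells and rose after IFN-gamma by a log2 change of 0.77 ± 0.114 (SE; edgeR adjusted p = 6.7e-04). Slc35e4, whose substrate is not known, had 3.47, 3.69 and 3.72 FPKM in combined, 7.12 and 8.72 FPKM in Pam3CSK4, 2.04, 1.62 and 1.33 FPKM in IFN-gamma and 3.03, 2.20 and 3.85 FPKM in Control cells. Both Pam3CSK4 libraries stood above all others. It rose after Pam3CSK4 by a log2 change of 1.39 ± 0.193 (SE; edgeR adjusted p = 4.4e-04) and fell after IFN-gamma by a log2 change of -0.75 ± 0.179 (SE; edgeR adjusted p = 0.0083). Slc35e1 fell in combined against IFN-gamma cells by a log2 change of -0.53 ± 0.0860 (SE; edgeR adjusted p = 0.0014). Slc35b2, which supplies the sulfate donor of the Golgi apparatus, averaged 36.3 ± 0.220 FPKM in combined, 45.4 ± 3.76 FPKM in Pam3CSK4, 24.3 ± 1.37 FPKM in IFN-gamma and 33.4 ± 5.34 FPKM in Control cells (SD). Combined cells stood above IFN-gamma cells by a log2 change of 0.57 ± 0.152 (SE; edgeR adjusted p = 0.018), a call lost without IFN-gamma replicate 1 or combined replicate 2 (adjusted p from 0.052 to 0.059).

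Ion carriers counted here numbered 16 and set chloride, sodium, calcium, protons and phosphate. Pam3CSK4 raised 3 (range 0 to 3) and lowered 3 (range 1 to 4) against Control. IFN-gamma raised 2 (range 2 to 3) and lowered 5 (range 2 to 5) against Control. Between combined and IFN-gamma cells, 5 (range 2 to 5) were higher and 2 (range 2 to 3) lower. These counts were 4 and 5, 3 and 6, and 5 and 2 when the 3 libraries with mural transcripts were left out. As shares of the class with all 11 libraries, they were 18.75% and 18.75%, 12.5% and 31.25%, and 31.25% and 12.5%. Those of all tested genes were 20% and 21.4%, 20% and 21.6%, and 17% and 17.2%. Without Pam3CSK4 replicate 2 the counts after Pam3CSK4 were 0 and 1. The falls after IFN-gamma were 2 or 3 without Pam3CSK4 replicate 1, IFN-gamma replicate 1 or 3, any 1 combined replicate or Control replicate 1. The rises in combined against IFN-gamma cells were 2 or 3 without IFN-gamma replicate 1 or 3 or any 1 combined replicate. Slc9a9, a sodium-proton exchanger of endosomes, had 2.18, 1.60 and 1.55 FPKM in combined, 2.30 and 2.64 FPKM in Pam3CSK4, 6.74, 8.46 and 5.93 FPKM in IFN-gamma and 12.9, 13.3 and 8.71 FPKM in Control cells. All libraries that saw Pam3CSK4 lay below all others, and Control libraries were the highest. It fell after Pam3CSK4 by a log2 change of -2.27 ± 0.274 (SE; edgeR adjusted p = 1.9e-04) and in combined against IFN-gamma cells by a log2 change of -1.99 ± 0.234 (SE; edgeR adjusted p = 2.0e-04). Slc12a2, which imports sodium, potassium and chloride together, had 6.39, 5.76 and 5.16 FPKM in combined, 11.6 and 9.65 FPKM in Pam3CSK4, 3.42, 3.65 and 2.27 FPKM in IFN-gamma and 11.8, 14.0 and 7.74 FPKM in Control cells and fell after IFN-gamma by a log2 change of -1.77 ± 0.260 (SE; edgeR adjusted p = 6.5e-04). Slc12a7, which exports potassium with chloride, had 15.2, 14.0 and 19.8 FPKM in combined, 9.502 and 13.6 FPKM in Pam3CSK4, 13.5, 12.1 and 11.6 FPKM in IFN-gamma and 6.74, 4.09 and 7.30 FPKM in Control cells and rose after IFN-gamma by a log2 change of 1.15 ± 0.211 (SE; edgeR adjusted p = 0.0022). Slc12a9, a relative, averaged 12.4 ± 0.239 FPKM in combined, 10.4 ± 0.435 FPKM in Pam3CSK4, 22.3 ± 4.05 FPKM in IFN-gamma and 11.1 ± 2.40 FPKM in Control cells (SD). It rose after IFN-gamma by a log2 change of 1.09 ± 0.208 (SE; edgeR adjusted p = 0.0027) and fell in combined against IFN-gamma cells by a log2 change of -0.86 ± 0.207 (SE; edgeR adjusted p = 0.011). Slc12a4, another potassium-chloride exporter, ran at 7.90 to 17.4 FPKM and rose after Pam3CSK4 by a log2 change of 0.61 ± 0.169 (SE; edgeR adjusted p = 0.018), a call lost without Pam3CSK4 replicate 2 (adjusted p = 0.13). Slc8a1, the sodium-calcium exchanger of the cell surface, had 18.3, 14.3 and 16.0 FPKM in combined, 10.5 and 8.95 FPKM in Pam3CSK4, 14.2, 18.7 and 12.9 FPKM in IFN-gamma and 17.1, 18.9 and 16.1 FPKM in Control cells, with both Pam3CSK4 libraries below all others. Pam3CSK4 lowered it by a log2 change of -0.86 ± 0.183 (SE; edgeR adjusted p = 0.0049), a call lost without Pam3CSK4 replicate 2 (adjusted p = 0.052). In combined against Pam3CSK4 cells it rose by a log2 change of 0.84 ± 0.183 (SE; edgeR adjusted p = 0.02), a call lost without Pam3CSK4 replicate 1, Pam3CSK4 replicate 2 or combined replicate 1 (adjusted p from 0.068 to 0.17).

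Of 8 ion pumps and kinases tested of 9 listed, 1 (range 0 to 1) rose and 2 (range 1 to 2) fell after Pam3CSK4, 1 (range 1 to 1) rose and 3 (range 3 to 3) fell after IFN-gamma, and 2 (range 2 to 2) rose and 0 (range 0 to 0) fell in combined against IFN-gamma cells. The shares of all tested genes were 20% and 21.4%, 20% and 21.6%, and 17% and 17.2%. Sgk1, a kinase that raises the activity of many carriers, averaged 36.1 ± 1.52 FPKM in combined, 33.3 ± 1.06 FPKM in Pam3CSK4, 22.5 ± 3.83 FPKM in IFN-gamma and 124 ± 20.9 FPKM in Control cells (SD). Both agents lowered it, Pam3CSK4 by a log2 change of -1.92 ± 0.206 (SE; edgeR adjusted p = 8.9e-05) and IFN-gamma by a log2 change of -2.38 ± 0.180 (SE; edgeR adjusted p = 1.1e-05). Atp2b1, a calcium pump of the cell surface, averaged 14.4 ± 1.33 FPKM in combined, 18.6 ± 2.38 FPKM in Pam3CSK4, 11.4 ± 2.01 FPKM in IFN-gamma and 25.0 ± 1.35 FPKM in Control cells (SD) and fell after IFN-gamma by a log2 change of -1.04 ± 0.140 (SE; edgeR adjusted p = 3.7e-04).

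Names in the Slc series do not all mark carriers. Slc9a3r1 encodes a scaffold that anchors membrane proteins to the actin cortex. It had 38.6, 36.5 and 38.4 FPKM in combined, 29.6 and 32.3 FPKM in Pam3CSK4, 28.9, 25.1 and 28.5 FPKM in IFN-gamma and 22.0, 19.6 and 18.6 FPKM in Control cells. All groups of treated libraries lay above Control, with combined highest. It rose after Pam3CSK4 by a log2 change of 0.60 ± 0.122 (SE; edgeR adjusted p = 0.0036) and after IFN-gamma by a log2 change of 0.55 ± 0.111 (SE; edgeR adjusted p = 0.0036). A further rise was seen in combined against IFN-gamma cells, by a log2 change of 0.45 ± 0.110 (SE; edgeR adjusted p = 0.011). Slc7a6os, a neighbour of Slc7a6 on the other strand, was not called in any comparison and ran at 10.8 to 14.8 FPKM.

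**Figure D3:**
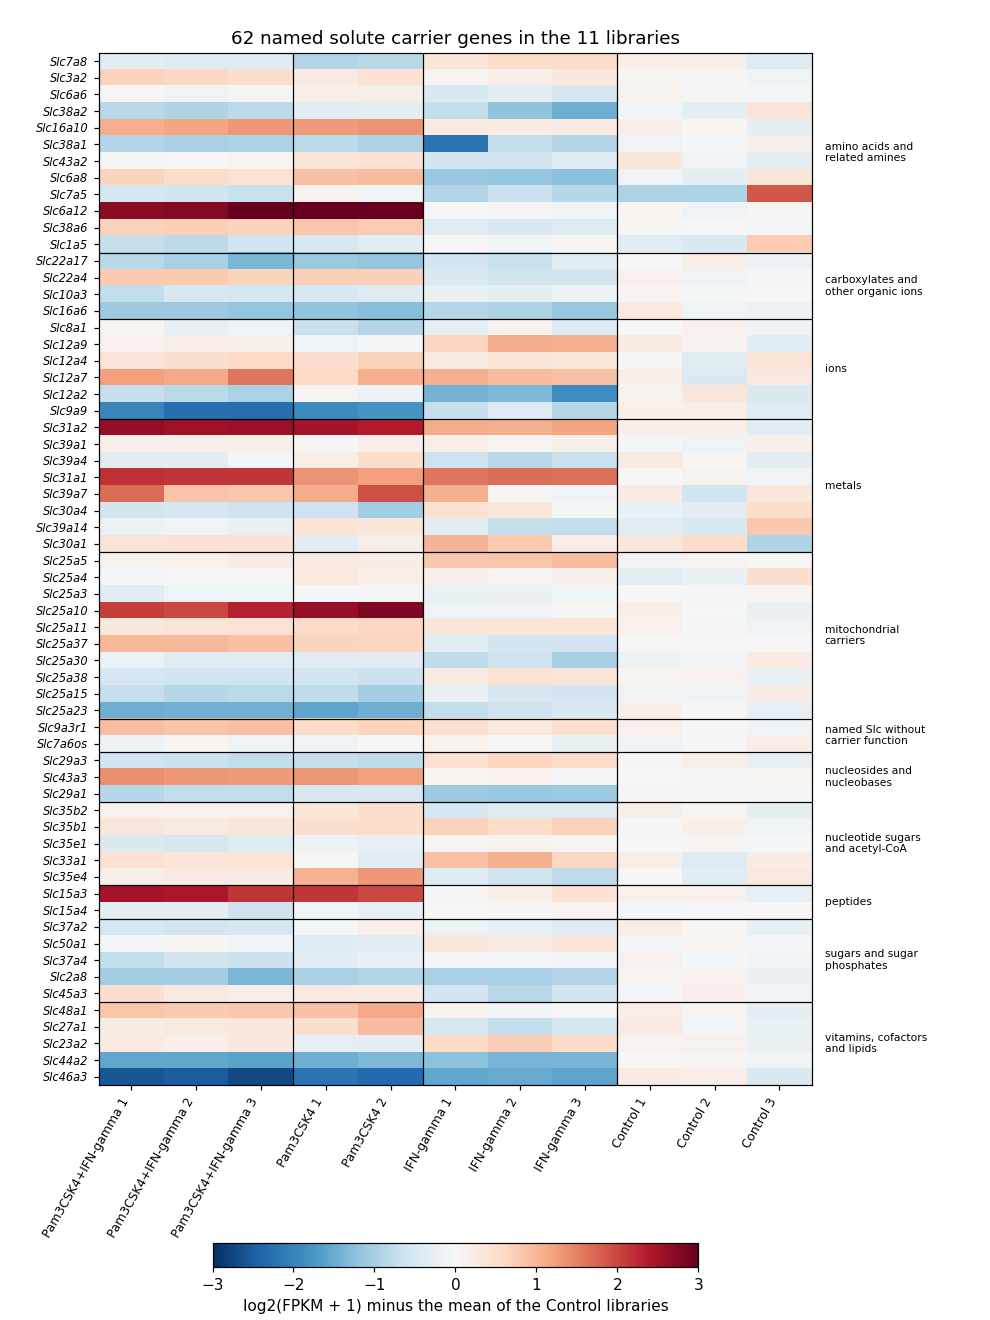
Log2(FPKM + 1) of 62 carriers in the 11 libraries minus the mean of the Control libraries; rows are grouped by substrate class, libraries run across with Control at the right, and the colour stops at 3 in either direction. Slc31a2, Slc31a1, Slc15a3, Slc25a10 and Slc6a12 are red in the 5 libraries that saw Pam3CSK4, Slc46a3 and Slc44a2 are blue in all 8 treated libraries, and Slc7a5 is red in Control replicate 3.

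The interaction asks whether the Pam3CSK4 effect differed with IFN-gamma present. It was called higher for 14 members and lower for 5, beside 8.01% and 8.01% of all tested genes. The 14 were 8 without Pam3CSK4 replicate 1, 4 without Pam3CSK4 replicate 2, 8 without combined replicate 1 and 25 without Control replicate 3. The 5 were 2 without Pam3CSK4 replicate 2, 3 without Pam3CSK4 replicate 1, IFN-gamma replicate 3 or any 1 combined replicate, and 10 without Control replicate 3. Beside the members given above (Slc6a8, Slc44a2, Slc29a1 and Slc25a37 higher, Slc31a1, Slc31a2 and Slc25a5 lower), Slc16a6 had an interaction of 1.29 ± 0.245 (SE; edgeR adjusted p = 0.0089), a call lost without Pam3CSK4 replicate 2 (adjusted p = 0.052). For Slc45a3 it was 1.22 ± 0.289 (SE; edgeR adjusted p = 0.022), lost without Pam3CSK4 replicate 1 (adjusted p = 0.066), Pam3CSK4 replicate 2 (adjusted p = 0.094) or combined replicate 1 (adjusted p = 0.058). For Slc25a30 it was 0.94 ± 0.201 (SE; edgeR adjusted p = 0.014), lost without Pam3CSK4 replicate 1 (adjusted p = 0.057) or Pam3CSK4 replicate 2 (adjusted p = 0.064). For Slc35b1 it was -0.84 ± 0.169 (SE; edgeR adjusted p = 0.011), lost without Pam3CSK4 replicate 2 (adjusted p = 0.056). For Slc8a1 it was 0.93 ± 0.241 (SE; edgeR adjusted p = 0.03), lost without Pam3CSK4 replicate 1, Pam3CSK4 replicate 2, IFN-gamma replicate 1, IFN-gamma replicate 3, combined replicate 1, combined replicate 3, Control replicate 1 or Control replicate 2 (adjusted p from 0.055 to 0.14). For Slc25a11 it was -0.59 ± 0.159 (SE; edgeR adjusted p = 0.034), lost without Pam3CSK4 replicate 1, Pam3CSK4 replicate 2, IFN-gamma replicate 1, IFN-gamma replicate 2, IFN-gamma replicate 3, combined replicate 1, combined replicate 2, combined replicate 3 or Control replicate 2 (adjusted p from 0.052 to 0.14).

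**Figure D4:**
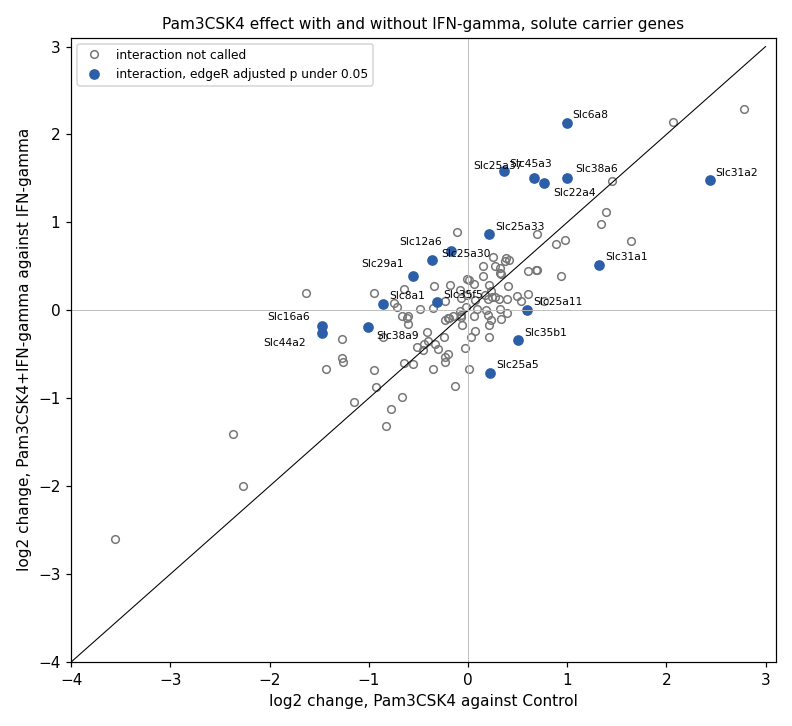
Log2 change of the counted carriers in Pam3CSK4+IFN-gamma against IFN-gamma cells (vertical) and in Pam3CSK4 against Control cells (horizontal); the line marks equal change, blue points have an interaction with edgeR adjusted p under 0.05 and open points do not, and Slc6a12 is not drawn. Slc6a8 lies above the line and Slc31a1 and Slc31a2 below it, while Slc15a3 and Slc25a10 rise on both axes.

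The 16 members with a mean under 2 FPKM over all libraries owe their place to 1 or some groups, so their values are given with no test. Slc6a19, a neutral amino acid carrier known from gut and kidney, stood at 3.74, 4.00 and 3.87 FPKM in combined, 0.241 and 0.392 FPKM in Pam3CSK4, 1.59, 1.29 and 1.19 FPKM in IFN-gamma and 0.214, 0.0980 and 0.0733 FPKM in Control cells, highest in combined cells. Highest in Pam3CSK4 cells were Slc35g1, with 1.14, 1.12 and 1.55 FPKM in combined, 2.38 and 2.74 FPKM in Pam3CSK4, 0.555, 0.540 and 0.477 FPKM in IFN-gamma and 0.383, 0.255 and 0.595 FPKM in Control cells, and Slc17a9, the vesicular ATP carrier, with 1.79, 1.54 and 1.48 FPKM in combined, 2.73 and 2.54 FPKM in Pam3CSK4, 0.858, 0.941 and 1.18 FPKM in IFN-gamma and 1.60, 1.49 and 1.11 FPKM in Control cells. Slc9a3r2, a scaffold like Slc9a3r1, had 0.373, 0.632 and 0.454 FPKM in combined, 2.59 and 3.19 FPKM in Pam3CSK4, 1.33, 0.0474 and 0.0880 FPKM in IFN-gamma and 0.413, 0.308 and 2.005 FPKM in Control cells, with IFN-gamma replicate 1 and Control replicate 3, both with mural transcripts, above the other libraries of their groups. IFN-gamma cells were highest for Slc25a22, a mitochondrial glutamate carrier, with 1.47, 1.53 and 2.35 FPKM in combined, 2.39 and 2.77 FPKM in Pam3CSK4, 3.00, 3.33 and 1.75 FPKM in IFN-gamma and 1.13, 1.15 and 1.02 FPKM in Control cells, for Slc37a1, with 1.20, 0.936 and 1.10 FPKM in combined, 0.543 and 0.444 FPKM in Pam3CSK4, 1.93, 3.08 and 2.83 FPKM in IFN-gamma and 0.991, 1.31 and 0.662 FPKM in Control cells, and for Slc45a4, with 1.44, 1.59 and 1.78 FPKM in combined, 1.58 and 1.34 FPKM in Pam3CSK4, 3.39, 2.53 and 2.05 FPKM in IFN-gamma and 1.77, 1.85 and 1.505 FPKM in Control cells. Control cells were highest for the polyamine carrier Slc18b1, with 0.929, 0.957 and 0.576 FPKM in combined, 1.24 and 0.919 FPKM in Pam3CSK4, 0.466, 0.576 and 0.589 FPKM in IFN-gamma and 2.82, 3.23 and 3.32 FPKM in Control cells, for the monocarboxylate carrier Slc16a7, with 0.666, 0.357 and 0.492 FPKM in combined, 0.793 and 0.508 FPKM in Pam3CSK4, 1.35, 1.76 and 1.65 FPKM in IFN-gamma and 2.41, 3.06 and 1.92 FPKM in Control cells, and for the anion carrier Slc26a11, with 0.723, 0.708 and 0.651 FPKM in combined, 0.763 and 1.06 FPKM in Pam3CSK4, 0.590, 0.569 and 0.580 FPKM in IFN-gamma and 2.54, 1.80 and 2.29 FPKM in Control cells. In those 3 genes no treated library reached the lowest Control library. The sodium-proton exchangers Slc9a5 and Slc9a7 were also highest in Control cells, at 1.00 ± 0.0805 FPKM in combined cells (SD, n = 3) and 2.22 ± 0.601 FPKM in Control cells (SD, n = 3), and at 1.39 ± 0.126 FPKM in combined cells (SD, n = 3) and 3.01 ± 0.216 FPKM in Control cells (SD, n = 3). Slc2a9, a urate carrier, Slc39a3, a zinc importer, and Slc4a1ap, an adaptor protein, ran at 1.07 to 2.70 FPKM, 1.49 to 2.26 FPKM and 1.504 to 2.20 FPKM. Slc1a6, a glutamate importer of neurons, was listed at 0, 0 and 0.368 FPKM in combined, 0 and 0 FPKM in Pam3CSK4, 2.34, 0.0256 and 0 FPKM in IFN-gamma and 0, 0 and 8.16 FPKM in Control cells; its level came from Control replicate 3 and IFN-gamma replicate 1, the libraries with the most mural transcripts.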

How the data were processed

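RNA was measured in 11 libraries of cultured mouse microglia in 4 groups. Per the file headers, the deposited table pairs read counts with FPKM values, per gene and library. The submitters' processing notes name mm10, Cuffdiff, Cufflinks 2.1.1 and TopHat2 2.1.0. The counting rule, annotation and strand setting stay unstated in the sources used here. Deposited counts, 15033702 to 20321017 per library, were tested with edgeR 4.0.16 in R 4.3.3 (quasi-likelihood F test, TMM scaling, 1 fit of the group means over all 11 libraries, two-sided, Benjamini-Hochberg adjustment over 10938 genes with at least 1 FPKM in at least 2 libraries, threshold 0.05). The deposited FPKM values were used for levels. A log2 change is the first group over the second, with an SE from the F statistic. The method was tested on simulated data.

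Members followed the level rule, and members, substrate classes and gene lists were chosen with earlier results of these data known. Slc4a1ap was moved to the class without carrier function after the table was read. Named genes were the 8 largest called rises and 8 falls in 3 comparisons and the 6 and 6 of the interaction among members with a mean of at least 2 FPKM, the 3 most abundant of each class, and a fixed panel; exceptions are marked. Other settings tried were DESeq2 1.42.0, its size factors, other low-level filters, limma 3.58.1 on log2(FPKM + 1) and log2(FPKM + 0.1), a replicate block, and libraries left out. No label ties a replicate number to an animal or day, so no block was used. Correlations of same-numbered libraries' deviations from group means had both signs, which cannot decide pairing. Libraries with mural transcripts correlated across numbers (0.81 for IFN-gamma replicate 1 and Control replicate 3), and the 2 Pam3CSK4 deviations mirror each other by construction. Gene identifiers and chromosomes of all 146 members matched GENCODE M21. Of the members, 46 share exon bases with another gene, 17 of them with a protein-coding gene.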

Additional observations from a re-analysis of the deposited data

Results flagged for a closer look

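The Pam3CSK4 effect differed with and without IFN-gamma, by edgeR's interaction test, for these carriers; each value is the log2 effect in IFN-gamma-treated cells minus that in cells without IFN-gamma. It was higher with IFN-gamma for Slc16a6 (1.29), Slc45a3 (1.22), Slc44a2 (1.21), Slc6a8 (1.14), Slc29a1 (0.95), Slc25a30 (0.94), Slc8a1 (0.93) and Slc25a37 (0.84). It was lower for Slc31a2 (-0.96), Slc25a5 (-0.93), Slc35b1 (-0.84), Slc31a1 (-0.81) and Slc25a11 (-0.59). Only Slc6a8, Slc44a2, Slc29a1, Slc25a37, Slc31a1 and Slc25a5 among these 13 kept the call under each setting tried and with each library left out in turn.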

How the results depend on the processing

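Of 116 gene-level differences printed, 95 kept their direction and side of the threshold under every setting that gave a value, and 7 of the other 21 were interactions. All but 1 of the 21 kept their direction. The exception, Slc7a5 after Pam3CSK4, turned to 0.13 with the replicate block, 0.059 under limma on log2(FPKM + 0.1), and 1.04 without the 3 libraries with mural transcripts; with each library left out it ranged from -1.07 to 1.04, the highest without Control replicate 3. Slc31a2 and Slc25a11 lost their interaction with the replicate block, and Slc25a30, Slc25a11 and Slc8a1 without the low-level filter. Without that filter Slc10a3, Slc1a5, Slc37a2, Slc39a4 and Slc43a2 lost a call, as did Slc43a2 with the replicate block and Slc1a5 under limma. The cause was not tested.

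Without a low-level filter, the falls in combined against IFN-gamma cells numbered 14, the rises and falls in combined against Pam3CSK4 cells 4 and 1, and the higher interactions 6. Without the 3 libraries with mural transcripts, those against Pam3CSK4 cells numbered 15 and 15, beside 10.97% and 8.43% of all tested genes (11.5% of the members each way), and the interactions 27 and 13, beside 14.6% and 13.7% of all tested genes (20.8% and 10.0% of the members). The falls against Pam3CSK4 cells numbered 7 with DESeq2, 13 with limma on log2(FPKM + 1) and 11 with log2(FPKM + 0.1). With each library left out in turn, rises after Pam3CSK4 ranged from 19 to 33, falls in combined against IFN-gamma cells from 15 to 29, rises against Pam3CSK4 cells from 2 to 14 and falls from 0 to 15, and interactions from 4 to 25 higher and 2 to 10 lower. With the replicate block, falls against Pam3CSK4 cells numbered 1 and lower interactions 3; the other counts stayed within 1.5 times. Same-numbered libraries' deviations correlated between -0.72 and 0.71, which cannot decide whether the numbers pair samples, and no label says so. Scaling by DESeq2 size factors moved the median change of all genes by at most 0.02 on the log2 scale. With 2 Pam3CSK4 libraries, and some members at a few FPKM, small changes were not detectable.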
